A study of Mus musculus with 6 samples.

Results

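The 10 genes described here encode proteins that coat lipid droplets or help to build them: Plin1 to Plin5, Cidea, Cidec, Bscl2, Fitm2 and Hilpda. They were taken by symbol, 10 of the 26214 genes listed in the deposited counts, and all 10 passed the filter on low counts that left 14709 genes for testing. The RNA-seq libraries came from mouse brown preadipocytes, immortalized and then differentiated in culture with insulin, T3, IBMX, dexamethasone and indomethacin followed by insulin and T3 alone. On day 7 the cells were exposed for 16 h to 100 nM rotenone, which blocks mitochondrial complex I (the NADH dehydrogenase), or to DMSO. There are 3 deposited files per group. The 3 rotenone files differ at 0 genes, so they were counted as 1 sample and set against 3 DMSO libraries. The comparison addresses how rotenone alters expression in mature brown adipocytes. The labels used here do not give the strain, sex or age of the source animals, or whether the immortalized cells are 1 clone.

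Fat is stored in cells as droplets with a core of triglyceride and a single phospholipid layer around it. Droplets form in the membrane of the endoplasmic reticulum, where seipin (Bscl2) and FIT2 (Fitm2) act on their assembly and budding, and they grow when CIDE proteins pass lipid from smaller to larger droplets. Perilipins coat the surface and set how easily lipases reach the core. A brown adipocyte holds many small droplets next to its mitochondria, which burn the fatty acids released from them.

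Total counts ran from 26085061 to 29194179 in the DMSO libraries and stood at 21611589 in the rotenone library, and levels are given as CPM (counts scaled to library size) on library sizes scaled by the TMM method. The fat cell markers Adipoq (1163 ± 88 CPM, SD, n = 3) and Fabp4 (5121 ± 402 CPM, SD, n = 3) were abundant in DMSO, while the brown fat marker Ucp1 stood at 67.2 ± 11 CPM (SD, n = 3) and Dio2 had 7, 1 and 0 counts. Markers of other cells were measured beside them. The summed level of 15 preadipocyte and fibroblast markers was 2636 to 2832 CPM in DMSO and 5925 CPM with rotenone. Of the 14 tested, 9 were called higher and 2 lower by the test given below, beside 27.6% and 28.5% of all genes tested. Most of the rise in the sum was in Col1a1, Acta2 and Tagln. Their DMSO means were 883, 155 and 122 CPM, against 2121, 852 and 654 CPM with rotenone. The 2 called lower were Pdgfra (19.5 to 9.1 CPM) and Zfp521 (3.6 to 1.7 CPM), and Cd34, Ly6a and Pi16 were called neither higher nor lower. The summed level of 16 fat cell markers was 44240 to 47690 CPM in DMSO and 39390 CPM with rotenone. Scd1, a fatty acid desaturase, made up most of it, at 30300 ± 1270 CPM (SD, n = 3) in DMSO and 24390 CPM with rotenone, and the other 15 summed to 15080 to 16150 CPM in DMSO and 15000 CPM with rotenone. That of 12 brown fat markers was 1094 to 1137 CPM in DMSO and 749 CPM with rotenone. Of the 11 tested, 3 were called higher (Elovl3, Cox8b and Cox7a1) and 6 lower, with a median log2 fold change of -1.605. The 6 were Ucp1 (18.5 CPM with rotenone), Prdm16, Kcnk3, Otop1, Ebf2 and Adrb3. With library size scaling the counts were 1 and 7, where 3245 and 5153 of all genes were called. When a coefficient of variation of 20% was assumed they were 0 and 6, beside 9.57% and 14.0% of all genes. Of 6 listed macrophage markers, Adgre1, Ptprc and Mrc1 had no count in any library, and the sum of all 6 was 2.36 to 3.57 CPM in DMSO and 15.5 CPM with rotenone, nearly all of it Cd68. Sums were 6.61 to 7.60 and 13.2 CPM for 6 endothelial markers, and 51.8 to 55.0 and 49.2 CPM for 7 skeletal muscle markers, of which Myod1 had no count. Des made up most of the muscle sum, at 50.9 CPM in DMSO and 41.7 CPM with rotenone, and was called lower. Acta1 was called higher, from 0.22 to 6.65 CPM, and Tnnc1 lower, from 2.19 to 0.84 CPM. The part that any shift in these cells plays in the values below was not tested, and fewer cells of a type and less RNA per cell cannot be told apart in bulk RNA.

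In DMSO the droplet genes spanned a wide range of abundance. Levels of different genes were compared as CPM per kilobase of the longest annotated transcript. On that scale Cidea, the brown fat member of the CIDE family, was highest at 631 ± 57 (SD, n = 3), followed by Plin2, the perilipin made by nearly all cells, at 460 ± 7.3. Cidec, the CIDE protein of large droplets, stood at 354 ± 8.8 and Plin1, the main coat protein of fat cells, at 301 ± 4.6. Plin4, which coats small new droplets, stood at 168 ± 11 and Plin3, a perilipin that moves between cytosol and droplets, at 49.9 ± 2.7. These 6 did not overlap one another across the 3 DMSO libraries. Plin5 (36.6 ± 2.6), Hilpda (36.5 ± 4.4) and Bscl2 (35.9 ± 0.42) could not be ordered, because their ranges over the libraries overlapped. Fitm2 was lowest at 15.9 ± 1.2. By CPM alone, without length, Plin4 ranked 81st, Plin2 99th, Plin1 101st, Cidea 138th and Cidec 172nd of all genes tested.

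The DMSO libraries differed little from each other for most of these genes. The coefficient of variation was 1.17% for Bscl2, below the 1.68% expected from counting alone, and 1.54% for Plin1 and 1.59% for Plin2. It was largest for Hilpda, at 12% against 3.14% from counting, and for Cidea, at 9.05% against 0.706%. DMSO replicate 1 was the highest of the 3 for Plin4, Plin5, Cidea and Fitm2, and replicate 3 the highest for Hilpda.

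With rotenone, 6 of the 10 genes fell, 1 rose and 3 did not pass the threshold. Hilpda, Plin5 and Plin4 fell most, to between 22.8% and 29.9% of their DMSO means. Cidec fell to 56.0%, Plin1 and Fitm2 fell to 78.8% and 76.6%, and Plin2 rose to 138%. Plin3, Bscl2 and Cidea stood at 102%, 102% and 95.7% of DMSO. The test was edgeR's quasi-likelihood test with Benjamini-Hochberg adjustment over all genes tested and a threshold of 0.05. In that comparison 28.5% of all genes tested were called lower and 27.6% higher, and 56.1% in either direction. The 6 genes that fell also lay below all 3 DMSO libraries, as did 44.7% of all genes tested, and Plin2 and Bscl2 lay above all 3, as did 41.5%. The median log2 fold change was -0.36 over the 10 genes and -0.04 over all genes tested. With a single rotenone library, the spread comes from the DMSO libraries alone (a biological coefficient of variation of 6.9%), and every p-value assumes that rotenone libraries vary as little. When a coefficient of variation of 20% was assumed, only Plin4, Plin5 and Hilpda were still called lower and 0 of the 10 higher, beside 14.0% and 9.57% of all genes.

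**Figure D1:**
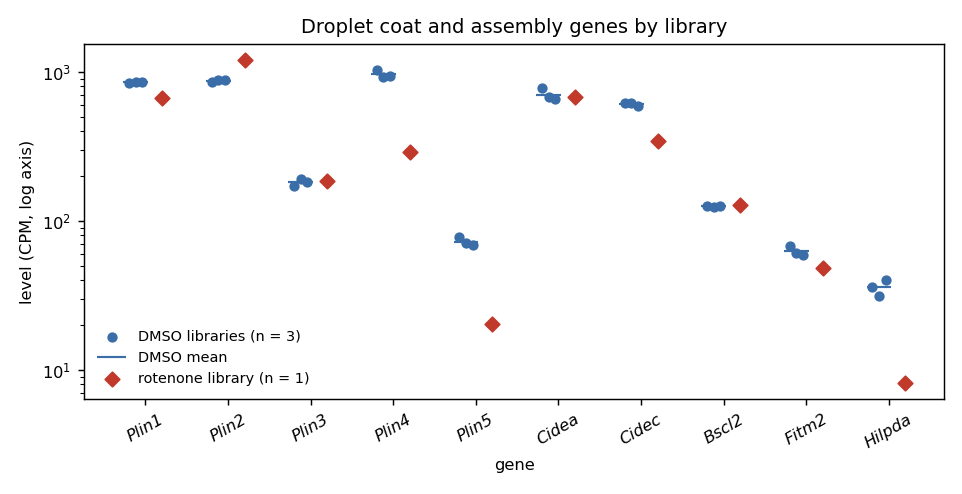
Level of each gene in CPM on a log axis, with 1 blue point per DMSO library, a bar at their mean and a red diamond for the rotenone library. The diamonds of Plin4, Plin5, Cidec and Hilpda lie clearly below the blue points, and that of Plin2 lies above them.

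**Figure D2:**
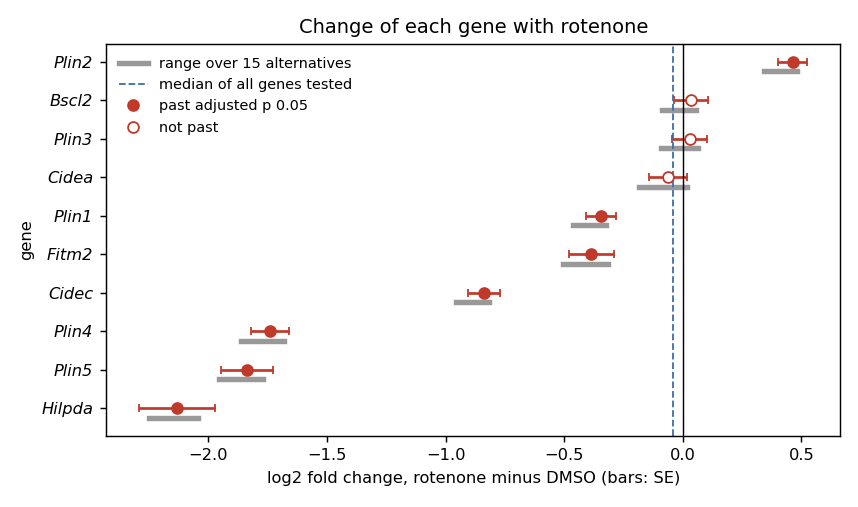
Log2 fold change of each gene, rotenone minus DMSO, with SE bars, filled where the adjusted p was under 0.05; grey bars give the range over 15 alternative analyses and the dashed line the median of all genes tested. Hilpda, Plin5 and Plin4 lie at -2.13, -1.84 and -1.74, and Plin2 at 0.46.

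The perilipins moved in different directions. Plin1 keeps lipases from the droplet core until hormones trigger its phosphorylation. It measured 835, 861 and 849 CPM in DMSO replicates 1, 2 and 3 and 669 CPM in the rotenone library. The rotenone value lay below all 3 DMSO values, a log2 fold change of -0.34 ± 0.06 (± SE; adjusted p = 0.00014, edgeR). Plin2 measured 853, 878 and 876 CPM in DMSO and 1198 CPM with rotenone. It was the only gene of the 10 called higher, with a log2 fold change of 0.46 ± 0.06 (adjusted p = 2.6e-06, edgeR), and its rank by CPM went from 99th to 78th. The calls for Plin1 and Plin2 were lost with the 20% coefficient of variation (adjusted p = 0.51 and 0.32, edgeR) and against a null of a 1.5-fold change. Plin3 measured 171, 190 and 184 CPM in DMSO and 185 CPM with rotenone, within the DMSO range (log2 fold change 0.03 ± 0.07, adjusted p = 0.75, edgeR), and its sign turned with upper quartile and library size scaling and without DMSO replicate 1.

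Plin4 and Plin5 are neighbours. Plin4 occupies chromosome 17 from 56100591 to 56109803 and Plin5 from 56111601 to 56117596 (GRCm38, GENCODE M21), both on the minus strand with 1797 bases between them. Plin4 measured 1035, 926 and 931 CPM in DMSO and 288 CPM with rotenone, and its rank among all genes went from 81st to 609th. Plin5, which is made in tissues that burn fat and tethers droplets to mitochondria, measured 78.4, 71.2 and 68.5 CPM in DMSO and 20.3 CPM with rotenone. Both rotenone values lay far below every DMSO value. The log2 fold changes were -1.74 ± 0.08 for Plin4 (adjusted p = 1.5e-12, edgeR) and -1.84 ± 0.11 for Plin5 (adjusted p = 7.2e-11, edgeR). There were 13.2, 13.0 and 13.6 counts of Plin4 for each count of Plin5 in the DMSO libraries and 14.2 in the rotenone library, a pair examined after the values were seen. Plin4 and Plin5 thus fell by close to the same factor, although Plin4 was the more abundant by far in every library. Plin3 lies on the same chromosome, from 56277476 to 56292873, and did not pass the threshold.

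The make-up of the 5 perilipins shifted, and their summed level was lower with rotenone by an amount that depended on the scale. Per kilobase, their sum was 1012 to 1019 in the DMSO libraries and 983 with rotenone, below all of them and 96.8% of the DMSO mean. In CPM without length it was 80.4% of the DMSO mean. With scaling by library size only these were 89.1% and 74.0%. Plin2 made up 44.5%, 45.6% and 45.8% of the summed level per kilobase in the DMSO libraries and 64.5% in the rotenone library. Plin4 made up 17.7%, 15.8% and 16.0% in DMSO and 5.09% with rotenone. The share of Plin1 was 29.7% ± 0.40 (SD, n = 3) in DMSO and 24.1% with rotenone, and that of Plin5 went from 3.61% ± 0.26 to 1.04%. Plin3 held 4.91% ± 0.26 and 5.17%. As plain counts, Plin2 took 50.7% of the 47908 perilipin counts of the rotenone library (exact 95% binomial interval 50.3% to 51.2%, counting error only), against 28.7% to 30.1% in the DMSO libraries. Plin1 took 28.3% of those counts, against 28.1% to 29.4% in DMSO, so its lower share appears per kilobase and not in plain counts. With 1 rotenone library these shares have no replicate check in that group.

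**Figure D3:**
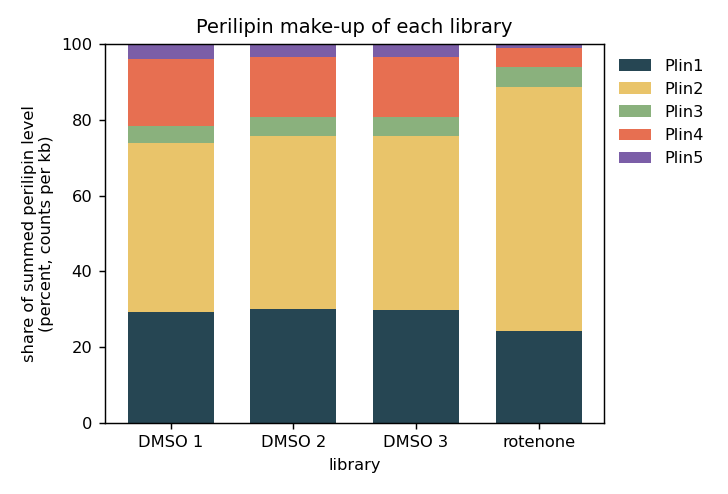
Share of each perilipin in the summed perilipin level of each library, in percent of counts per kilobase. Plin2 fills 44.5% to 45.8% of the 3 DMSO columns and 64.5% of the rotenone column, and Plin4 shrinks from at least 15.8% to 5.09%.

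Ratios between genes of the same library do not depend on how libraries are scaled to each other. The count ratio of Plin2 to Plin1 was 1.02, 1.02 and 1.03 in DMSO and 1.79 with rotenone. That is a log2 difference of 0.81, where the DMSO SD was 0.009 and the counting error of the rotenone ratio 0.015. The ratio of Plin4 to Plin1 was 1.24, 1.08 and 1.10 in DMSO and 0.431 with rotenone, and that of Plin3 to Plin1 0.205, 0.221 and 0.216 against 0.277. In all 7 pairs examined the rotenone value lay outside the DMSO range, as did the levels of most single genes (44.7% below and 41.5% above), so nothing is read from that count. The ratios were not tested; an exact permutation test of 3 libraries against 1 cannot give a p under 0.25.

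**Figure D4:**
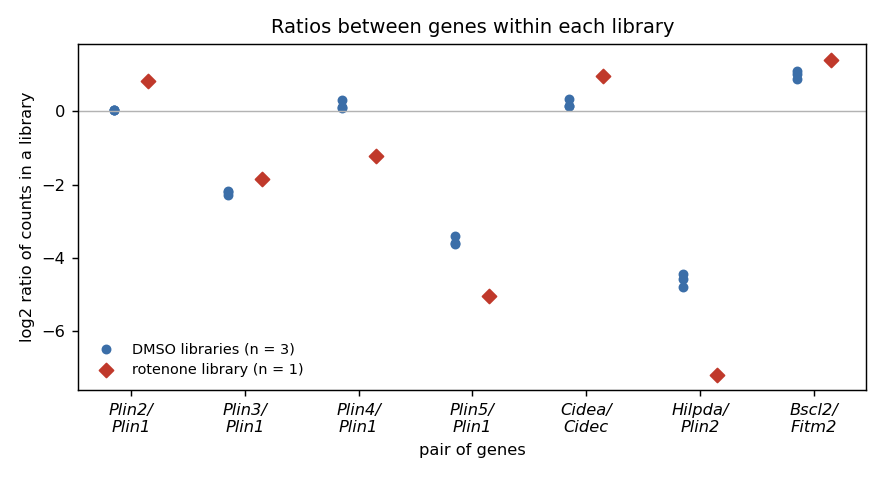
Log2 ratio of the counts of 2 genes within each library, with blue points for the 3 DMSO libraries and a red diamond for the rotenone library. The ratio of Hilpda to Plin2 shows the largest distance, from a DMSO mean of -4.61 to -7.19.

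The CIDE genes parted. Cidea measured 775, 683 and 653 CPM in DMSO and 673 CPM with rotenone, inside the DMSO range, with a log2 fold change of -0.06 ± 0.08 (adjusted p = 0.52, edgeR) that turned to 0.02 without DMSO replicate 1. Cidec (chromosome 6, 113424634 to 113435760) measured 615, 622 and 593 CPM in DMSO and 341 CPM with rotenone, below all DMSO values. Its log2 fold change was -0.84 ± 0.07 (adjusted p = 4.7e-09, edgeR), and the call was lost with the 20% coefficient of variation (adjusted p = 0.066, edgeR). There were 1.26, 1.10 and 1.10 counts of Cidea for each count of Cidec in DMSO and 1.97 with rotenone. Cidea is known as the CIDE protein of brown fat and Cidec as that of white fat, where it makes droplets large. Cideb, the relative known from liver, was low, at 5.37 ± 0.15 CPM (SD, n = 3) in DMSO and 3.10 CPM with rotenone, and was called lower (-0.79 ± 0.26, adjusted p = 0.016, edgeR), but not with the 20% coefficient of variation.

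Of the assembly genes of the endoplasmic reticulum, Fitm2 fell and Bscl2 did not pass the threshold. Bscl2 (chromosome 19, 8837467 to 8848683), whose loss in humans causes a near absence of fat tissue, measured 126, 124 and 127 CPM in DMSO and 128 CPM with rotenone (log2 fold change 0.03 ± 0.07, adjusted p = 0.70, edgeR). Its rotenone value was just above the DMSO range, and its sign turned with upper quartile and library size scaling. Fitm2 (chromosome 2, 163466379 to 163472629) measured 68.2, 61.3 and 59.2 CPM in DMSO and 48.2 CPM with rotenone, below all DMSO values. Its log2 fold change was -0.39 ± 0.10 (adjusted p = 0.0021, edgeR), which no longer passed when a 20% coefficient of variation was assumed (adjusted p = 0.46, edgeR). Fitm1, its relative known from muscle, had 9, 4 and 11 counts in DMSO and 4 with rotenone. The exons of Bscl2 share 398 bases with Gng3 on the opposite strand. They also share 239 bases with AC129217.1 on the same strand, which is not listed in the counts. Those of Fitm2 share 227 bases with the antisense RNA 2310001K24Rik. The sources used here do not say whether strand was used in counting. Gng3 had 100 to 102 counts in DMSO and 23 with rotenone, and 2310001K24Rik 175 to 235 and 139, where the counts of Bscl2 were 2607 to 3730 and those of Fitm2 978 to 2020.

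Hilpda encodes a very small droplet protein that is induced by hypoxia-inducible factor (HIF) and inhibits ATGL (Pnpla2), the lipase that takes the first fatty acid off triglyceride. It lies on chromosome 6 from 29272488 to 29275446. It measured 35.8, 31.6 and 40.2 CPM in DMSO and 8.18 CPM, or 166 counts, with rotenone. The rotenone value was far below all DMSO values and its log2 fold change of -2.13 ± 0.16 (adjusted p = 2.0e-09, edgeR) was the largest fall of the 10, at the 5.63 percentile of all genes tested. Of 20 other HIF targets, none of them a glycolysis enzyme, 20 were called lower and 0 higher, beside 28.5% of all genes called lower. With the 20% coefficient of variation the counts were 15 lower and 0 higher, beside 14.0% and 9.57% of all genes. The median of the 20 was -1.61. Of these, 8 fell by more than Hilpda, among them Ankrd37 (-6.26 ± 0.25), Egln3 (-4.91 ± 0.09) and Ndufa4l2 (-4.24 ± 0.11), and 12 fell by less. Ankrd37 had only 9 counts with rotenone. This list was drawn up with earlier results of these data known, so its direction is no independent evidence. None of the HIF subunit transcripts tested was called lower: Hif1a was called higher (0.29 ± 0.08, adjusted p = 0.0060, edgeR), though not with library size scaling or the 20% coefficient of variation, while Epas1 (0.12 ± 0.08) and Arnt (-0.11 ± 0.08) did not pass the threshold. Plin2 is also known as a HIF target and lay in the opposite direction from Hilpda, so that the ratio of Hilpda to Plin2 counts was 0.0420, 0.0360 and 0.0459 in DMSO and 0.00683 with rotenone.

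Start regions of 9 of the 10 genes were found in RefSeq's annotation of GRCm38.p6, as 14 windows from 250 bases before to 50 bases after a start site, and were searched on both strands. The letters ACGTG, the core of a HIF site, were in windows of 2 members, Hilpda and Plin2, and in 19.6% of all 32851 windows. In Hilpda they begin 43 bases before the downstream start site. In Plin2 they are part of CACGTG, an E-box found in 7.15% of windows, which begins 4 bases before the start site and which holds ACGTG on both strands. The windows of these genes, which moved in opposite directions, are shown from 110 bases before to 10 bases after the start site, read 5′ to 3′ on the gene's strand. Capitals mark ACGTG or CACGTG and, in Plin2, also CCAAT, a common promoter box.
Hilpda, chr6:29272516-29272635, plus strand: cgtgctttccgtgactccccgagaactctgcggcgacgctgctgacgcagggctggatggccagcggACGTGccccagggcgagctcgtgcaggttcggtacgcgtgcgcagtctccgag
Plin2, chr4:86670050-86670169, minus strand: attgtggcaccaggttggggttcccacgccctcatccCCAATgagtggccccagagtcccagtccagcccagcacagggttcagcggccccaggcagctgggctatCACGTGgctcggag

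The windows of Plin4 and Plin5 both hold CTATAAGG close to the start site, whereas the window of the adjacent gene Lrg1, which fell as well (-1.56 ± 0.13), does not. It begins 33 bases before that of Plin4 and 28 bases before the upstream start site of Plin5, and is in 0.417% of all windows. The letters were chosen after the sequences of these genes had been seen. They are not the only run of 8 bases in both windows: CCCAGACC, just before CTATAAGG, is shared too, and its share of all windows was not counted. Their windows over the same span are shown with CTATAAGG and CCAAT (on the other strand, ATTGG) in capitals.
Plin4, chr17:56109773-56109892, minus strand: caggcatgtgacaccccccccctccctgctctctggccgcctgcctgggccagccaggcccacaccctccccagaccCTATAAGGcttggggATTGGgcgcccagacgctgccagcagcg
Plin5, chr17:56117539-56117658, minus strand: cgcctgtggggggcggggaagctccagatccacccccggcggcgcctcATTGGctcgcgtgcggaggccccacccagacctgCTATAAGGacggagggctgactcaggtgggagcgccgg
CCAAT, on either strand, was in windows of Plin2, Plin3, Plin4, Plin5 and Bscl2 and in 37.4% of all windows. TTGCNNAA, a form of the C/EBP site, was in windows of Plin1 and Cidec and in 10.8% of all. The direct repeat bound by PPAR with RXR (AGGNCA, any 1 base, AGGNCA) was in no window of these genes and in 0.381% of all windows. These matches are descriptions of the letters and not of binding.

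Transcription factors known to act on droplet genes were lower in part. Of 18 such regulators, 2 were called higher and 9 lower (median log2 fold change -0.28), beside 27.6% and 28.5% of all genes. With library size scaling the counts were 0 and 11, where 3245 and 5153 of all genes were called. With the 20% coefficient of variation they were 0 and 4, beside 9.57% and 14.0% of all genes. Among the receptors of the PPAR family, which switch on perilipin and CIDE genes in fat cells, Ppara measured 173 ± 8.3 CPM (SD, n = 3) in DMSO and 62.5 CPM with rotenone, a log2 fold change of -1.46 ± 0.08. Pparg gave -0.65 ± 0.07 and Ppard -0.72 ± 0.08, both called lower but not with the 20% coefficient of variation. Cebpa, a driver of fat cell differentiation, gave -2.31 ± 0.08, from 558 ± 24 CPM to 112 CPM. Esrra, a receptor for genes of oxidative metabolism, gave 0.20 ± 0.08 and passed narrowly (adjusted p = 0.047, edgeR), but not with library size scaling or the 20% coefficient of variation. Cebpb did not pass, with 8290, 2317 and 3368 counts in DMSO replicates 1, 2 and 3 and 4438 with rotenone, so replicate 1 stood apart from the others for this gene.

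Of 10 lipases and their regulators tested, 2 were called higher and 4 lower (median -0.16), beside 27.6% and 28.5% of all genes, and nothing is read from these counts. With library size scaling they were 2 and 7, where 3245 and 5153 of all genes were called. Lipe, hormone-sensitive lipase, gave a log2 fold change of -1.88 ± 0.07 and G0s2, an inhibitor of ATGL, gave -1.78 ± 0.08, from 661 ± 33 CPM (SD, n = 3) to 192 CPM. Pnpla2, which encodes ATGL itself, measured 932 ± 3.7 CPM in DMSO and 884 CPM with rotenone and did not pass (-0.08 ± 0.06). Abhd5, the activator of ATGL that Plin1 holds in reserve, rose from 93.3 ± 3.9 CPM to 148 CPM (0.67 ± 0.07, adjusted p = 2.6e-07, edgeR), but did not pass when a 20% coefficient of variation was assumed. Mgll, the last lipase of the pathway, did not pass (-0.12 ± 0.07). Of the rest, Pnpla3 fell by 1.87 on the log2 scale, Abhd6 rose by 0.80 and Pnpla6 fell by 0.45, the last 2 not with the 20% coefficient of variation.

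Of 16 triglyceride synthesis enzymes tested, 5 were called higher and 4 lower (median -0.10), shares close to the 27.6% and 28.5% of all genes. With library size scaling they were 5 and 7, where 3245 and 5153 of all genes were called. Gpam, the mitochondrial enzyme of the first step, fell most, from 249 ± 21 CPM (SD, n = 3) to 66.4 CPM (-1.91 ± 0.09), and Gpat4, its relative in the endoplasmic reticulum, fell by 0.94 on the log2 scale. Agpat2, whose loss in humans causes a lipodystrophy like that of BSCL2, rose by 0.41 ± 0.07, but did not pass with the 20% coefficient of variation. Agpat4 and Mogat2 rose by 1.05 and 1.45 from low levels of 5.78 and 1.15 CPM. Dgat1 and Dgat2, which make the final product, gave -0.10 ± 0.07 and -0.13 ± 0.07 and did not pass.

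Of 30 other droplet proteins tested, 8 were called higher and 14 lower, with a median log2 fold change of -0.22, beside 27.6% and 28.5% of all genes. With the 20% coefficient of variation the counts were 2 and 3, beside 9.57% and 14.0% of all genes. The largest rises were those of Sqle, squalene epoxidase (1.02 ± 0.06), Spg20, which encodes spartin (0.93 ± 0.08), Aup1, a droplet protein of ubiquitin-driven turnover (0.65 ± 0.07) and Arf1, a small GTPase (0.53 ± 0.06), of which Aup1 and Arf1 did not pass with that coefficient of variation. The largest falls beside Cideb were those of Mettl7b, Stard9 (-1.28 ± 0.13) and Vps13d, a lipid transfer protein (-0.91 ± 0.08). Mettl7b had 0.642 CPM in DMSO and 0 counts with rotenone, which is at least 4.34-fold lower when the rotenone value is put at 3 counts (0.148 CPM; counting error only). General fat cell markers gave 2 higher and 8 lower of 16 (median -0.23), with the largest falls in Acvr1c (-2.38 ± 0.10), Lep (-1.94 ± 0.12) and Adipor2 (-1.16 ± 0.08). For these markers library size scaling gave 1 and 10, where 3245 and 5153 of all genes were called. The 20% coefficient of variation gave 0 and 3, beside 9.57% and 14.0% of all genes.

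**Figure D5:**
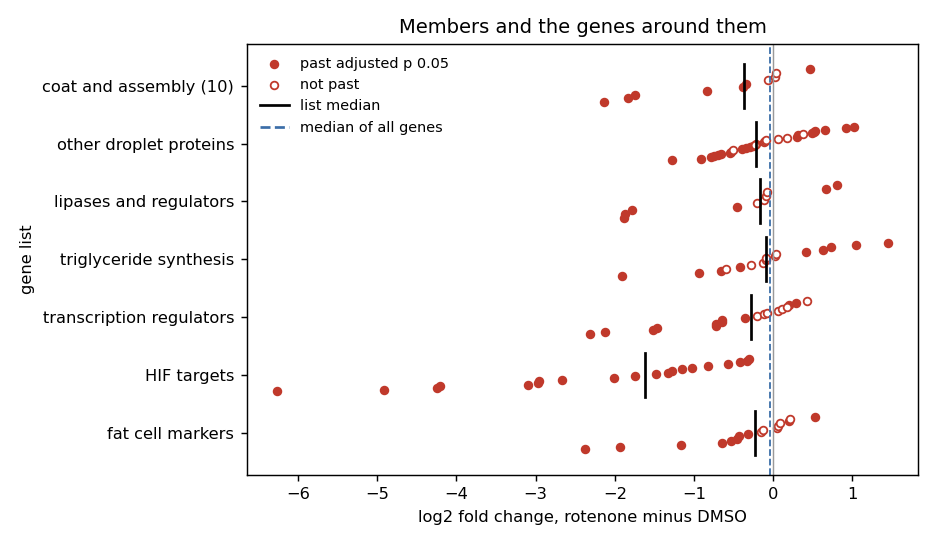
Log2 fold change of each tested gene in 7 lists, rotenone minus DMSO, filled where the adjusted p was under 0.05, with a black bar at each list's median and a dashed line at the median of all genes. All 20 HIF targets lie below 0, whereas the other lists spread to both sides. The lists were drawn up with earlier results of these data known. Mettl7b, at 0 counts with rotenone, is left off the plot but counted in its list's median.

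Transcript length moved with the comparison as a whole. Over genes put in 10 equal groups by the length of the longest transcript, the median log2 fold change ran from 0.24 in the group of shortest transcripts to -0.27 in that of the longest. Plin4, at 5756 bases, lies in the ninth of these groups (median -0.22) and Hilpda, at 982 bases, in the first. With the median of its own group subtracted, Plin4 gave -1.52, Plin5 -1.96, Cidec -0.92 and Hilpda -2.37, and Plin2 gave 0.34. Cidea, with a transcript of 1115 bases, gave -0.31 after this subtraction, where it had given -0.06 before.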

How the data were processed

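RNA-seq of differentiated immortalized brown adipocytes was read from 6 deposited files of whole-number counts per gene symbol, not normalized by the authors. Per the submitters' processing notes, TopHat2 and mm10 were used; no source used here names the counting program, annotation or strand setting. Identical rotenone files were used as 1 library. The labels call the replicates independent without naming separate cultures, so p-values reflect only the differences among these libraries, possibly technical.

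Counts were filtered with filterByExpr, scaled by TMM and tested with the robust quasi-likelihood F test of edgeR 4.0.16 (R 4.3.3), with 2 residual degrees of freedom. The SE is the size of the log2 fold change divided by the square root of F. The test was tried on simulated counts. Alternatives used DESeq2 1.42.0, limma-voom (limma 3.58.1), other scalings, filters and thresholds, left-out DMSO libraries and a 20% coefficient of variation. After the data were seen, 2 were added: leaving out Rn45s (2.51% to 3.91% of counts) and subtracting length group medians.

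The members and lists were chosen with earlier results of these data known. Named genes are the 10 members, fixed regulators, lipases and enzymes, the largest changes of each list, and each member's neighbours. Positions are from GENCODE M21 (GRCm38), and start regions are RefSeq sequences. Lengths matched 14216 of 14709 genes.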

Additional observations from a re-analysis of the deposited data

How the results depend on the processing

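The call of 6 droplet genes as lower held under 13 of 15 alternatives (6 without each DMSO replicate in turn). It was 4 against a null of a 1.5-fold change and 3 with a 20% coefficient of variation. The 1 gene called higher became 0 under both of these. Over all genes tested, 4054 were higher and 4197 lower; against the 1.5-fold null 1203 and 1731, with the 20% coefficient of variation 1408 and 2063, and without each DMSO replicate 3977 to 4173 and 4076 to 4193. Library size scaling gave 3245 and 5153 and moved the median of all genes from -0.04 to -0.16. Hilpda, Plin4 and Plin5 kept their call under all 15 alternatives, from -2.25 to -2.04, -1.86 to -1.68 and -1.96 to -1.77. Signs turned for genes that never passed: Plin3 gave -0.014 with upper quartile scaling, -0.092 with library size scaling and -0.0060 without DMSO replicate 1, Bscl2 gave -0.0090 and -0.086 with the same scalings, and Cidea gave 0.018 without DMSO replicate 1. Over the DMSO replicates left out in turn, Plin3 ran from -0.0060 to 0.065 and Cidea from -0.115 to 0.018. The cause was not tested. Of the lists, other droplet genes went from 8 higher and 14 lower to 2 and 3 with the 20% coefficient of variation, triglyceride synthesis from 5 and 4 to 2 and 2, and regulators from 2 and 9 to 0 and 4. No paired analysis was possible because the rotenone files hold 1 library, which carries no replicate number of its own.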

Other observations

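The genes that lie beside the droplet genes were measured as well. On the 226 kb of chromosome 17 from Ubxn6 to Plin3, 12 of 13 listed genes were tested, the members Plin3, Plin4 and Plin5 among them. Of the 12, 7 were called lower, Plin4 and Plin5 included, and 3 higher, where 28.5% and 27.6% of all genes tested were. The 5 genes in a row from Plin4 to Tnfaip8l1, which include the members Plin4 and Plin5, were all called lower. Next to Plin5, Lrg1, which encodes a secreted leucine-rich glycoprotein, measured 53.6 ± 6.0 CPM (SD, n = 3) in DMSO and 18.2 CPM with rotenone (log2 fold change -1.56 ± 0.13). Sema6b, a membrane semaphorin, gave -3.80 ± 0.36 from 7.58 CPM, and Tnfaip8l1 gave -1.92 ± 0.45 from 2.81 CPM. The run had an edge on each side. Hdgfl2, on the opposite strand with 17 exonic bases shared with Plin4, was called higher (0.66 ± 0.09), as was Mydgf beyond Tnfaip8l1 (0.38 ± 0.08) and Dpp9 after it (0.68 ± 0.11). Ubxn6 did not pass (0.05 ± 0.08), and Fem1a and Ticam1, next to Plin3, gave -0.50 ± 0.09 and -0.93 ± 0.11, both called lower. The stretch was chosen after its values were seen, and whether such runs are frequent among all genes was not tested.

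Around the other members the neighbours went both ways. Pex11a and Kif7 beside Plin1 were called lower (-0.57 ± 0.08 and -0.64 ± 0.17), as were Impdh1 and Fam71f2 beside Hilpda (-1.51 ± 0.08 and -2.70 ± 0.60). Fam71f2 was low, at 1.955 CPM in DMSO and 0.296 CPM with rotenone. Dennd4c beside Plin2 (-0.33 ± 0.08) and Impa2 beside Cidea (-0.35 ± 0.10) were called lower as well. Tubb6, on the other side of Cidea, and Jagn1 beside Cidec were called higher (0.74 ± 0.07 and 0.39 ± 0.10), and so was Gdap1l1 beside Fitm2, from 0.277 CPM. Haus6, Rpusd3, Hnrnpul2 and Lrrn4cl did not pass the threshold, and Arrdc5 and R3hdml were not among the genes tested.

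For the pairs of lipolysis genes below, chosen after the values were seen, the ratio of counts lay outside the DMSO range. So did the levels of most single genes (44.7% below and 41.5% above). There were 1.35, 1.40 and 1.49 counts of Pnpla2 for each count of its inhibitor G0s2 in DMSO and 4.60 with rotenone. Abhd5 had 0.137, 0.133 and 0.154 counts for each count of G0s2 in DMSO and 0.772 with rotenone. For each count of Plin1, Abhd5 had 0.113, 0.103 and 0.114 counts in DMSO and 0.222 with rotenone. Lipe had 1.09, 1.10 and 1.03 counts for each count of Plin1 in DMSO and 0.370 with rotenone. These ratios were not tested.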
